A study of Mus musculus with 2 samples.

Results

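Chemokines, cytokines, nuclear factor kB (NF-kB) genes and leukocyte adhesion molecules were followed as a set of 48 genes in pancreatic islet RNA. A probe set, the group of short probes that reads a transcript, was assigned to a gene where the platform's annotation gave that gene as its only symbol. Of the 48 genes 47 had such a probe set, with 81 probe sets in all out of 45101 on the array, and Nfkb1 is not analysed here. The study used 2 expression arrays, 1 for each kind of mouse. The transgenic sample came from islets of male mice, 6 weeks old, that overexpress miR-141/200c, and the control sample from islets of male C57Bl6 mice of the same age, neither of them treated after islet extraction. The labels name the source as beta-cells and title the transgenic sample Ripmir, a name they do not explain and whose first part may refer to the promoter of the transgene. They do not state the strain background of the transgenic mice or the number of mice per sample. Because each group had 1 array (n = 1), the values have no replicate spread and were put to no test, and higher and lower describe this pair of arrays and not the genotypes. Any difference of mouse, islet isolation or hybridisation between the samples cannot be told apart from the genotype.

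Chemokines are small secreted proteins that guide leukocytes, and they are classed as CC, CXC or CX3C by the spacing of their first cysteines. Many of them, together with interleukin-6, tumour necrosis factor and the adhesion molecules of the vessel wall, are transcribed when NF-kB proteins enter the nucleus, and NF-kB also switches on its own inhibitors. In islets, beta cells as well as resident macrophages and endothelial cells make such signals in response to interleukin-1, interferons or metabolic stress. The overexpressed agents were microRNAs, small RNAs that repress messenger RNAs carrying sites for the seed, and they are shown because they define the transgenic group. Capitals mark the seed, bases 2 to 8, which differs between them at 1 position. Sequences are from RefSeq.
miR-141-3p (GRCm38.p6, chr6:124717917-124717938, minus strand): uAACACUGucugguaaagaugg
miR-200c-3p (GRCm38.p6, chr6:124718324-124718346, minus strand): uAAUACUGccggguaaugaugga

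The promoters of 4 CXC chemokine genes of chromosome 5 are shown because these genes lie on the same chromosome and differed in opposite directions. Each window runs from 250 bases before to 50 bases after the start of the gene, 5′ to 3′ on the strand of the gene, as RefSeq gives it. Capitals mark matches to kB motifs, the sites NF-kB proteins recognise, and to the core of the interferon-stimulated response element.
Cxcl9 (GRCm38.p6, chr5:92328030-92328329, minus strand): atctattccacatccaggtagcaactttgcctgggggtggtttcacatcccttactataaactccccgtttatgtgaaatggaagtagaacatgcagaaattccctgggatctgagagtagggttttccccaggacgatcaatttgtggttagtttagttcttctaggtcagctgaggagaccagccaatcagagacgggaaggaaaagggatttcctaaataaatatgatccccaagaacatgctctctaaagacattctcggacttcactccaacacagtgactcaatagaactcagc
Cxcl10 (GRCm38.p6, chr5:92348840-92349139, minus strand): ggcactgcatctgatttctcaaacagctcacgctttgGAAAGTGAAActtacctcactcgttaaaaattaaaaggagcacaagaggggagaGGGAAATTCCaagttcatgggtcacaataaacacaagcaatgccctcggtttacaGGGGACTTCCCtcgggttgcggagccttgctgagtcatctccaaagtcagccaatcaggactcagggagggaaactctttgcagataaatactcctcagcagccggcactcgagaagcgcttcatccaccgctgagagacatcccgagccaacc
Cxcl1 (GRCm38.p6, chr5:90890995-90891294, plus strand): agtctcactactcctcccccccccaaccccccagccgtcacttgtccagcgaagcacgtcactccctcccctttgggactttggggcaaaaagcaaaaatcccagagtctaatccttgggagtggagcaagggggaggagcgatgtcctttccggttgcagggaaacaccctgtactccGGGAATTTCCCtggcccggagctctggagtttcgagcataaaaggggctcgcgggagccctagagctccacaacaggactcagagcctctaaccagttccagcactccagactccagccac
Cxcl2 (GRCm38.p6, chr5:90903649-90903948, plus strand): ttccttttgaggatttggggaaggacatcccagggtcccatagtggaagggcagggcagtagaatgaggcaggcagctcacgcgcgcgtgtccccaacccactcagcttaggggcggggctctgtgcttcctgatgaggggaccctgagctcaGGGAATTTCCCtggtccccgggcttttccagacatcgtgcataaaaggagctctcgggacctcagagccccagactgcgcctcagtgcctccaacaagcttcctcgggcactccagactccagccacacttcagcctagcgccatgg

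The kB motif searched was GGGA, any 2 bases, then TTCC, on both strands, and a degenerate kB consensus, which contains the first, was searched as well. Of the 48 genes 33 had a promoter window in the table, 39 windows in all. The first kB motif was in 8 of 39 windows (20.5%), against 1.47% of all 32851 windows of that length. It was found for Cxcl1, Cxcl2, Cxcl10, Il6, Csf1, Nfkb2 and Nfkbia. The degenerate consensus was in 35.9% of the windows of the set and 8.46% of all windows. In Cxcl1 and Cxcl2 the match began 71 and 97 bases before the start and read GGGAATTTCC in both. In Il6 it read GGGATTTTCC and began 44 bases before the start. The interferon element core, GAAA, any 2 bases, then GAAA, was in 5.13% of the windows of the set and 3.44% of all, and among the shown promoters only in Cxcl10, 213 bases before the start. The TATA motif TATAAA, on either strand, was in 43.6% and 13.6% of them. Cxcl9 held no match to either kB motif in this window. A match is a string of letters and not a measured binding site.

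Each gene was represented by its probe set with the highest mean, and it was kept if either array read 5.76 or more, the floor, which is the median of all probe set values. Of the 47 measured genes 28 were kept, 26 of them at the floor on both arrays. Cxcl11 was kept only through the transgenic value and Cxcl9 only through the control value, so a difference was built into their choice. The kept genes comprised 5 of 13 CC ligands, 9 of 11 CXC and CX3C ligands, 3 of 9 interleukins, 3 of 5 other cytokines, 5 of 6 NF-kB genes and 3 of 4 adhesion molecules. Below the floor on both arrays in the probe set used were Ccl3, Ccl6, Ccl7, Ccl8, Ccl11, Ccl12, Ccl20, Ccl22, Cxcl5, Cxcl14, Il1a, Il1rn, Il10, Il12b, Il15, Il33, Csf2, Tgfb1 and Sele, and their differences ran from -0.54 for Il12b to 0.53 for Ccl6. RMA values carry no detection call, so a value below the floor does not show that a transcript was absent, and none of these differences is read further.

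The kept genes of the set split nearly evenly. Differences are given on the log2 scale, transgenic minus control. Of 28 genes 15 were higher and 13 lower on the transgenic array, with a median of 0.0055, beside a median of 0.029 over all 12143 kept genes, of which 54.2% were higher. The share of higher genes in the set, 53.6%, turned to 42.9% when a trend of the difference on the mean was subtracted. Cxcl10 and Cxcl11, both ligands of the receptor Cxcr3, were at least 2-fold higher, which is 2 of 28 beside 2.51% of all kept genes. No gene of the set was 2-fold lower, beside 0.511% of all kept genes. At 1.5-fold, Vcam1 joined Cxcl10 and Cxcl11 on the higher side (3 of 28, beside 7.73% of all), and Cxcl2 and Cxcl9 were on the lower side (2 of 28, beside 3.14%). With counts this small the shares are not read as different from the background. A difference of 0.5 or more was seen for 3 genes on the higher side and 3 on the lower. For 14 of the 28 genes it was under 0.25 in size.

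**Figure D1:**
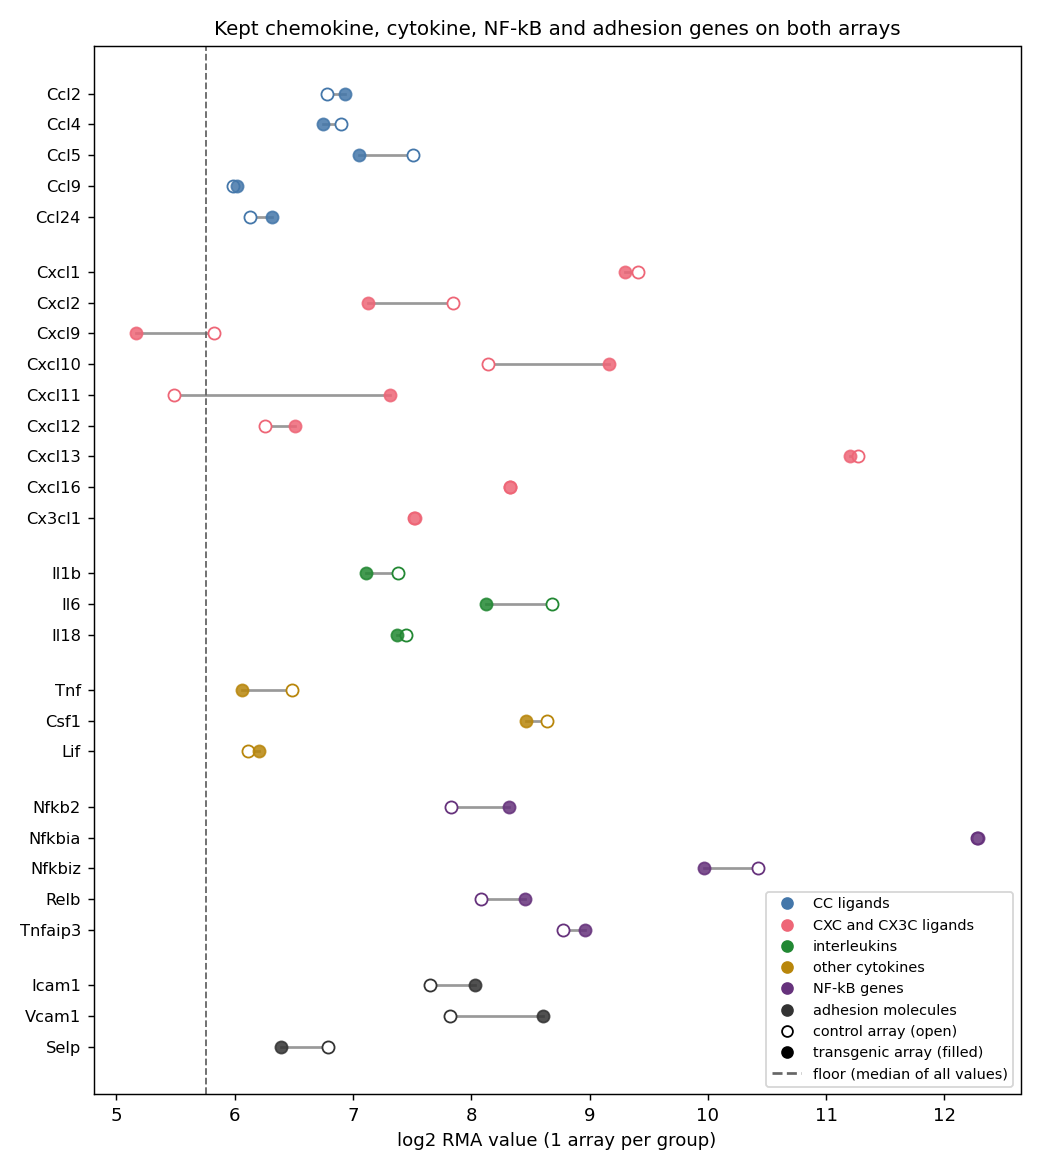
Log2 RMA value (horizontal axis) of the 28 kept genes on the control array (open circles) and the transgenic array (filled circles), coloured by group, with 1 array per group and so no error bars; the dashed line is the floor of 5.76. The widest gaps are those of Cxcl11 and Cxcl10, and the circles of Cxcl16, Cx3cl1 and Nfkbia coincide.

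Among the CC ligands no gene passed 1.5-fold in either direction. Of the 5 kept, 3 were higher, beside 54.2% of all kept genes, with a median of 0.036. Ccl5, known as RANTES, which attracts T cells and other leukocytes, read 7.05 on the transgenic and 7.51 on the control array, a difference of -0.46. It was the furthest from 0 of the kept CC ligands. Ccl2, which recruits monocytes through Ccr2, read 6.93 and 6.78 (transgenic first, here and below), and Ccl4, a chemokine made by activated macrophages, read 6.74 and 6.89. The differences of 0.16 and -0.15 are smaller in size than 0.28, the median range between probe sets of a gene. That median is over 5180 genes with more than 1 probe set at the floor. Over the 10 such genes of the set it was 0.13, below both sizes. Ccl2 and Ccl4 have 1 probe set each. Ccl9, a chemokine of myeloid cells in the mouse, read 6.02 and 5.98, and Ccl24, which attracts eosinophils through Ccr3, read 6.32 and 6.13. These values are close to the floor, and the second probe set of Ccl9 was below it on both arrays.

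The CXC ligands held the set's furthest differences on both sides. Cxcl11 read 7.32 on the transgenic and 5.49 on the control array, a difference of 1.83 or 3.54-fold, at rank 47 from the highest of the 12143 kept genes. Its control value is below the floor, and against the floor itself the transgenic value was 2.94-fold higher. The other Cxcl11 probe set differed by 0.91 in the same direction but was below the floor on both arrays, at 4.13 and 3.22. In the GRCm38.p6 annotation of the C57BL/6J mouse Cxcl11 is a transcribed pseudogene, the only gene of the set that is not annotated as protein coding. Since the strain background of the transgenic mice is not given, the part of strain in this difference was not tested.

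Cxcl10, an interferon-induced chemokine also known as IP-10, read 9.16 on the transgenic and 8.14 on the control array, so both values were well clear of the floor. The difference was 1.02 or 2.03-fold, at rank 289 from the highest, and it rests on the only Cxcl10 probe set. After a second quantile normalization it was 0.99, just short of 2-fold. Cxcl9, the remaining Cxcr3 ligand, went the other way, at 5.16 and 5.83, a difference of -0.66. Measured only down to the floor, that difference shrinks to -0.066, and the other Cxcl9 probe set was below the floor on both arrays. The receptor itself, Cxcr3, was below the floor on both arrays at 5.62 and 5.71.

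The neutrophil-attracting ligands of Cxcr2 were lower on the transgenic array. Cxcl2 read 7.13 on the transgenic and 7.84 on the control array, 1.64-fold lower and the lowest difference of the set at -0.71, rank 203 from the lowest of all kept genes. Cxcl1 read 9.30 and 9.41, and its 3 probe sets, all at the floor, differed by -0.11, -0.20 and -0.28. They gave the same sign for the gene, with sizes up to 0.28, which is also the median range between probe sets over all genes with several. The receptor gene Cxcr2 was below the floor at 3.81 and 4.09.

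The remaining CXC and CX3C ligands, which include those made constitutively, all differed by less than 0.25. Cxcl12, a stromal chemokine that retains cells through Cxcr4, was the furthest of them at 6.51 and 6.26, a difference of 0.249. The other Cxcl12 probe sets, below the floor on each array, gave 0.54 and -0.097. Cxcr4 itself read 7.31 and 7.17. Cxcl13, which draws B cells through Cxcr5, read 11.20 and 11.27, with a second probe set at 10.37 and 10.42. Its probe sets gave differences of -0.066 and -0.052. The membrane-bound chemokine Cxcl16 read 8.33 and 8.32, and Cx3cl1, or fractalkine, read 7.53 and 7.52. The differences of Cxcl16 and Cx3cl1 were 0.00046 and 0.010, and both turned slightly negative when a trend on the mean was subtracted or the arrays were quantile-normalized again.

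**Figure D2:**
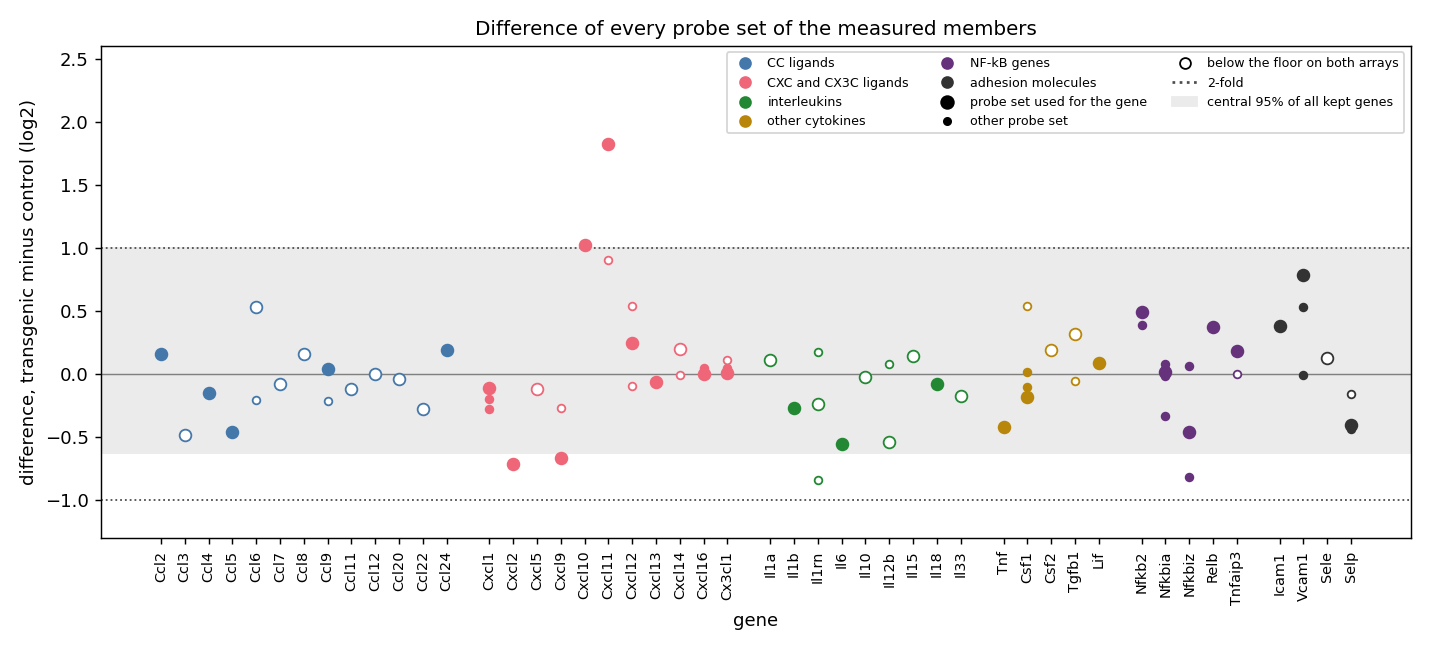
Difference, transgenic minus control on the log2 scale (vertical axis), of all 81 probe sets of the 47 measured genes (horizontal axis), coloured by group; large circles are the probe set used for the gene, small circles its other probe sets, open circles are below the floor on both arrays, dotted lines mark 2-fold and the grey band is the central 95% of all kept genes (-0.63 to 1.0). Cxcl10, Cxcl11, Cxcl2 and Cxcl9 lie outside the band among the probe sets used, and Nfkbiz and Vcam1 have probe sets that lie apart from each other.

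Neighbouring chemokine genes differed in both directions. On chromosome 5 Cxcl10 and Cxcl11 are next to each other with no coding gene between them. Cxcl9 is separated from Cxcl10 by 1 coding gene. The differences in the order Cxcl9, Cxcl10, Cxcl11 were -0.66, 1.02 and 1.83. Cxcl9 and Cxcl11 were each kept through 1 array only, so their directions were built into the choice. Against the floor they differed by -0.066 and 1.56. Cxcl1 and Cxcl2 are also direct neighbours and were both lower, at -0.11 and -0.71. On chromosome 11, which holds 10 CC ligand genes of the set in 2 runs of direct neighbours, 4 were kept, and their differences ran from -0.46 for Ccl5 to 0.16 for Ccl2. Gene order is that of GRCm38.p6, and no coordinate of it was used with the array values.

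**Figure D3:**
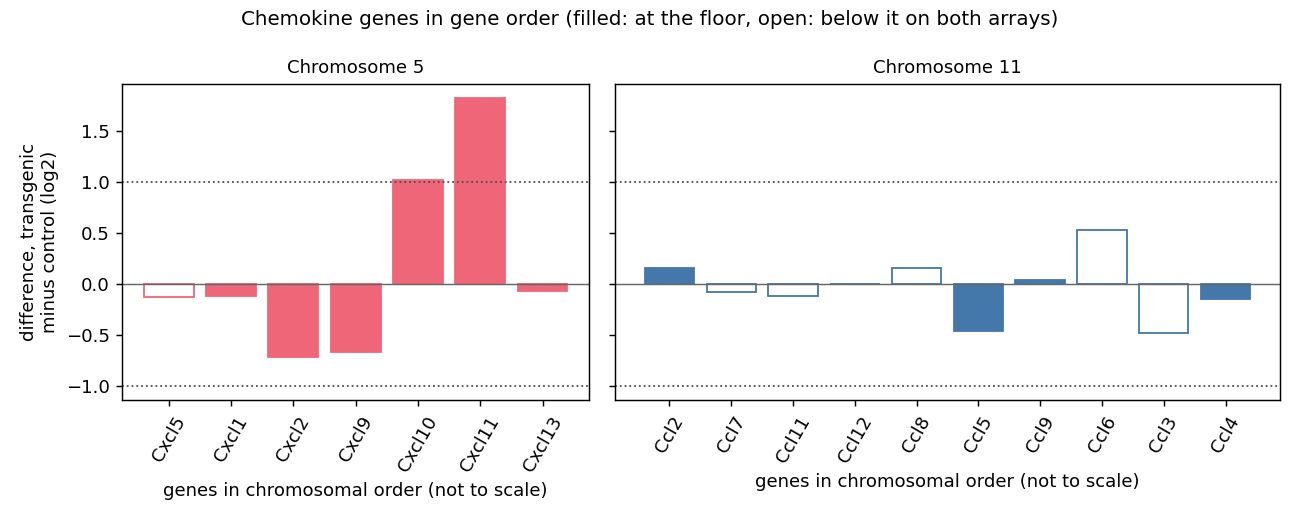
Difference, transgenic minus control on the log2 scale (vertical axis), of chemokine genes of chromosome 5 (left) and chromosome 11 (right) in gene order, which is not to scale; filled bars are genes at the floor on at least 1 array, open bars are below it on both, and dotted lines mark 2-fold. Cxcl9 points down and Cxcl10 and Cxcl11 point up, but Cxcl9 and Cxcl11 were each kept through 1 array only. No kept gene of chromosome 11 passes 0.5 in either direction.

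All 3 kept interleukins were lower on the transgenic array, with a median of -0.27, while 54.2% of all kept genes were higher. So few genes give no direction of the group. Il6, a cytokine that islet cells secrete under stress, read 8.13 on the transgenic and 8.68 on the control array, a difference of -0.55 or 1.47-fold, at rank 445 from the lowest. Il1b, the inflammatory interleukin-1 that impairs beta cells, read 7.11 and 7.38, and Il18, which the inflammasome releases in the same way, read 7.37 and 7.45. Only Il6 reached 0.5, and each of the 3 genes has a single probe set. The natural inhibitor of interleukin-1, Il1rn, had 3 probe sets below the floor on both arrays. Of the other cytokines, Tnf, a main activator of NF-kB, read 6.06 and 6.49, a difference of -0.42 close to the floor. Csf1, the growth factor of macrophages, read 8.46 and 8.64, but its differences over 3 probe sets at the floor were -0.18, -0.11 and 0.012. Lif, an interleukin-6 family cytokine, read 6.20 and 6.11. None of these 3 cytokines passed 1.5-fold.

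Of the 5 kept NF-kB genes 4 were positive, beside 54.2% of all kept genes, with a median of 0.18. None passed 1.5-fold, and a count this small is not read as a direction of the group. The median was 0.093 with the probe sets of each gene averaged and 0.052 with each probe set counted once, and the summed linear level of the group was 0.988 times that of the control array. Nfkb2 encodes p100, the precursor of the alternative NF-kB pathway, and read 8.32 on the transgenic and 7.82 on the control array. Its difference was 0.49, and its second probe set gave 0.39. Relb, the partner that p100 holds in the cytoplasm, read 8.45 and 8.08, a difference of 0.37. The feedback inhibitors Nfkbia and Tnfaip3 differed less in the probe set used. Nfkbia, the inhibitor IkB-alpha, read 12.29 and 12.27, and its 5 probe sets ran from -0.33 to 0.082. The sign of its own small difference, 0.016, turned when the trend was subtracted. Tnfaip3, the deubiquitinase A20, read 8.96 and 8.78, a difference of 0.18. Nfkbiz, a nuclear IkB protein that promotes a subset of targets including Il6, was lower at 9.97 and 10.42, a difference of -0.46. Its other probe sets gave -0.81 and 0.065, so 1 of 3 had the opposite sign.

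Among the adhesion molecules of the vessel wall, Icam1 and Vcam1 were higher and Selp lower. Vcam1, which binds the integrin with the Itga4 chain, read 8.61 on the transgenic and 7.82 on the control array, a difference of 0.79 or 1.72-fold, at rank 518 from the highest. Its other probe sets gave 0.53 and -0.011, and the mean over all probe sets was 0.43. Icam1, the ligand of the integrin of Itgal and Itgb2, read 8.03 and 7.65, a difference of 0.38 from a single probe set. Selp, the P-selectin of activated endothelium and platelets, read 6.39 and 6.79, and 2 of its probe sets at the floor gave -0.40 and -0.44. Endothelial markers were 7 of 8 positive, beside 54.2% of all kept genes, with a median of 0.091. The part of cell composition in the differences of the adhesion molecules was not tested.

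**Figure D4:**
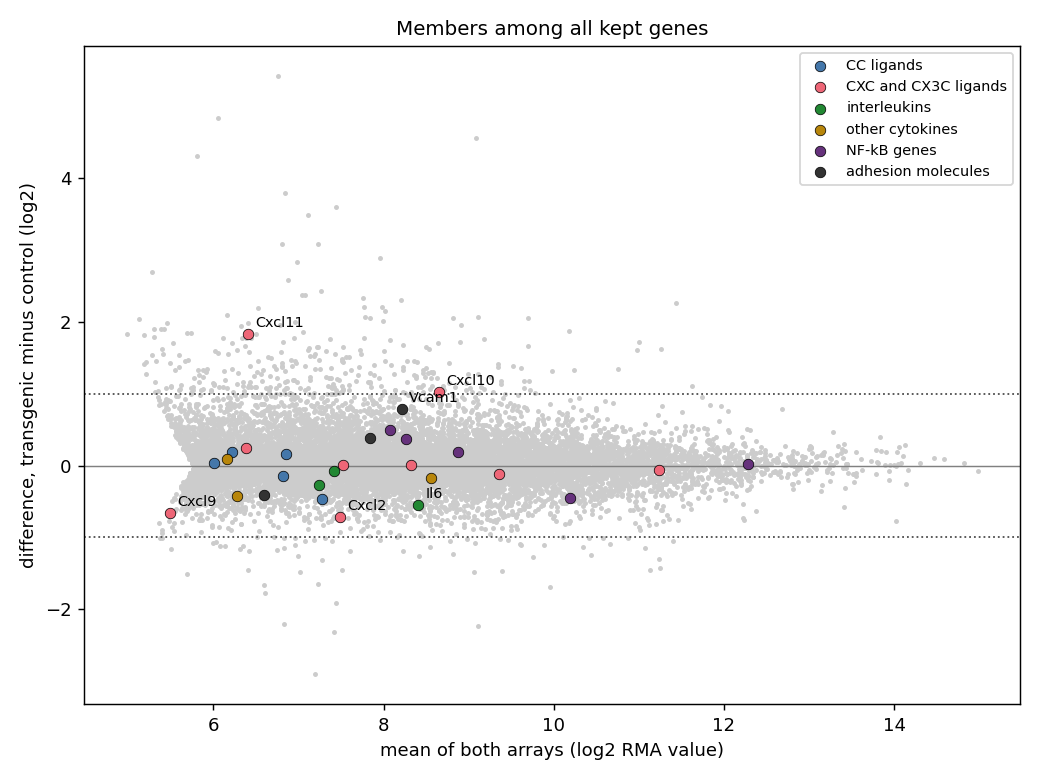
Difference, transgenic minus control on the log2 scale (vertical axis), against the mean of both arrays (log2 RMA value, horizontal axis) for all 12143 kept genes (grey) and the 28 kept genes of the set (coloured by group); dotted lines mark 2-fold and the 6 genes at 0.5 or more in size are named. Cxcl11 and Cxcl9 sit at the low end of the signal, and Cxcl10 in the middle of the scale. At the low end differences reach further on the higher side, but hardly on the lower.

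The upper end of the spread of differences depended on the level, and the lower end hardly did. Kept genes were split by mean level into 4 bins of equal size. In the lowest bin, which holds Cxcl11 and Cxcl9, the central 95% of differences ran from -0.64 to 1.28 and 4.58% of genes were 2-fold higher. In the bin next to the highest, which holds Cxcl10, it ran from -0.64 to 0.89 and 2.01% were 2-fold higher. Cxcl10, at 1.02, lies above that range. In the bin next to the lowest, which holds Cxcl2 at -0.71, the lower end was -0.63. Cxcl11, at 1.83 or 1.56 against the floor, and Cxcl9, at -0.66 or -0.066 against the floor, were each kept through 1 array only, so their place in the lowest bin is partly set by the filter and supports nothing. Over all kept genes the central 95% ran from -0.63 to 1.0.

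The differences of the genes with the first kB motif are given as a description, and the part of the motif in them was not tested. The windows of Il6, Csf1, Nfkb2 and Nfkbia are not printed above, and 15 genes of the set had no window. The kept genes whose windows held the first kB motif ran from the lower end of the set to the higher, with Cxcl2 at -0.71, Il6 at -0.55, Csf1 at -0.18, Cxcl1 at -0.11, Nfkbia at 0.016, Nfkb2 at 0.49 and Cxcl10 at 1.02. Cxcl1 and Cxcl2, whose matches have the same 10 letters, were both lower, at -0.11 and -0.71. Cxcl14, the other gene of the set with a match to the interferon element core, was below the floor on both arrays.

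The receptors and signalling proteins around these genes, taken from 4 further lists, are described next. Of 16 kept cytokine receptor genes of 22 measured, 2 were 2-fold higher and 1 was 2-fold lower (median 0.036), beside 2.51% and 0.511% of all kept genes, and counts of this size are not read as different from those shares. Il1r2, a decoy receptor that captures interleukin-1 without signalling, read 9.88 on the transgenic and 7.93 on the control array, 3.87-fold higher. The signalling receptor Il1r1 read 10.99 and 11.73, a difference of -0.74. Csf2rb, the shared beta chain of the receptors for GM-CSF, interleukin-3 and interleukin-5, read 7.99 and 6.78, 2.32-fold higher, with a second probe set at 0.83. That second probe set was at the floor only on the transgenic array. Another probe set, which the annotation also assigns to the near-identical Csf2rb2, was below the floor on both arrays and differed by -0.15. Il6ra, the interleukin-6 receptor, read 9.05 and 10.15, 2.14-fold lower, and its second probe set gave -0.64. Il6 and Il6ra were therefore both lower, while Il6st, the signalling chain they share with Lif, read 9.27 and 9.06. Another Il6st probe set, at the floor on both arrays, gave 0.52. A further one, at the floor only on the transgenic array, gave 0.84. The last, below the floor on both arrays, gave -0.46.

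None of the 9 kept chemokine receptor genes of 21 measured passed 2-fold (median -0.050). Their differences ran from -0.26 for Ccr7 to 0.60 for Cxcr5, the receptor of Cxcl13, which read 7.01 and 6.41. None of the 26 NF-kB core and upstream genes passed it either, with 15 higher and 11 lower and a median of 0.045. They ran from -0.60 for Bcl3, a nuclear IkB protein, to 0.51 for Tnip1, a partner of A20, and Rela, the main activating subunit, read 10.17 and 9.97. Among 13 kept leukocyte adhesion partners 10 were higher, beside 54.2% of all kept genes, with a median of 0.21. So small a count is not read as different from that share. Itgb2, the beta chain of the Icam1 receptor, was the furthest on the higher side at 7.39 and 6.39, a difference of 0.99. Glycam1, a ligand of L-selectin made by specialised lymph node vessels, was the single gene 2-fold lower there, beside 0.511% of all kept genes. It read 5.74 on the transgenic array, just below the floor, and 8.64 on the control, 7.48-fold lower. That difference, -2.90, was the lowest of all 12143 kept genes.

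**Figure D5:**
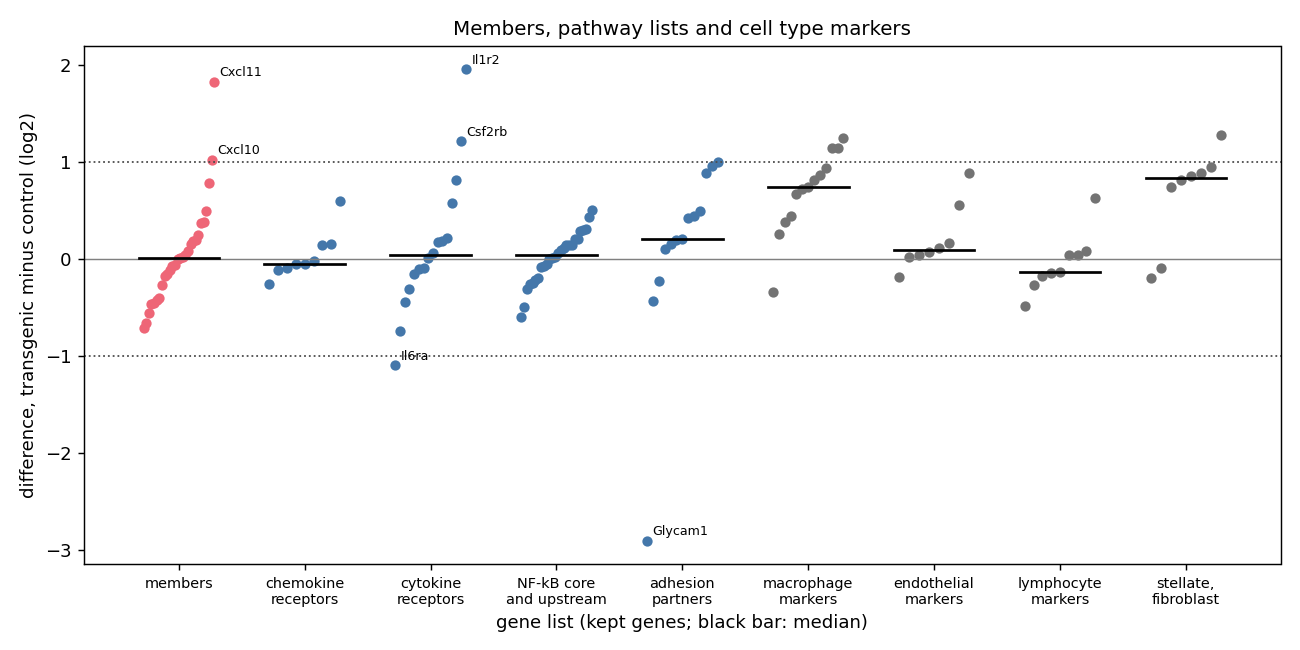
Difference, transgenic minus control on the log2 scale (vertical axis), of the kept genes of the set, of 4 pathway lists and of 4 lists of cell type markers (horizontal axis); each point is a gene, black bars are medians, dotted lines mark 2-fold, and genes past 2-fold are named for the set and the pathway lists. The set and the NF-kB list centre near 0, and the macrophage and stellate cell markers centre above it.

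Cells other than beta cells contribute to every value, and in such bulk samples fewer cells of a type and less RNA per cell cannot be told apart. Of 13 kept macrophage markers 12 were higher (median 0.75), beside 54.2% of all kept genes. Of the 13, 3 were 2-fold higher, beside 2.51% of all kept genes. The summed level of these markers, added on the linear scale, was 8240 on the transgenic and 5681 on the control array. Of 8 kept stellate and fibroblast markers 6 were higher (median 0.83), beside 54.2% of all kept genes, with sums of 7037 and 3905. Lum among the 6 was kept only through the transgenic value, so its direction was set by the filter. Rgs5, the highest of the 8 at 12.21 and 11.26, weighs most in these sums. Endothelial markers summed to 4317 and 4055, and 9 lymphocyte markers to 2422 and 2494 with a median of -0.14. Mrc1, Cd163 and Itgam of the macrophage list were below the floor on both arrays. The part of these cells in the values of Cxcl10, Vcam1, Csf2rb or Itgb2 was not tested. The islet hormone genes read high, Ins2 at 14.95 and 15.02 and Gcg at 14.13 and 14.19. Acinar markers were high as well, with sums of 92017 and 87505, beside 98259 and 97517 for the beta cell markers. Of 8 kept acinar genes 6 were higher, beside 54.2% of all kept genes, with a median of 0.072. Rbpjl among these 6 was kept only through the transgenic value. Cpa1, a digestive carboxypeptidase, read 14.17 and 14.04. Prss2, a trypsinogen, differed by -0.11, while its other probe sets, at similar levels, gave 0.20, 0.18 and 0.10. Ctrc, the protease chymotrypsin C, read 7.996 and 10.23, 4.70-fold lower. Array controls differed as well, with all 24 poly-A spike probe sets higher on the transgenic array (median 1.51) and all 18 hybridisation controls (median 0.40), and their part in the differences was not tested.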

How the data were processed

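Total RNA of islets, extracted with Trizol and labelled with biotin, was hybridised to 1 Affymetrix array per group. The authors deposited a log2 value for each probe set, made with RMA in Affymetrix Expression Console, per the submitters' processing notes; versions are not stated there. RMA corrects background, equalises the arrays' distributions and summarises probes, which compresses differences near background. The number of arrays limits the precision. Symbols came from the platform annotation (34945 probe sets with 1 symbol, 932 with several, 9160 with none in the table, 64 controls). From these values were computed differences, counts and medians, with no test: 1 probe set per gene (highest mean), a floor of 5.76 on at least 1 array, and a 2-fold size rule. The procedure was tested on simulated data with planted differences and no noise, which checks the code and not the array values. Every gene of the set was named; of pathway lists, genes past 2-fold and the furthest each way. Il1r1, Il6st, Cxcr2, Cxcr3, Cxcr4, Rela, Prss2, Cpa1, Lum, Rgs5 and Rbpjl were named after their values were seen. The genes and lists were chosen with earlier results of these data known. Promoter and microRNA sequences are RefSeq's, GRCm38.p6. Python 3.11.15, numpy 2.4.6, pandas 2.3.3 and statsmodels 0.14.6 were used. Alternatives were other probe set rules, floors, normalizations, symbols and a 1.5-fold rule.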

Additional observations from a re-analysis of the deposited data

How the results depend on the processing

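No paired analysis was possible because each group has 1 array. Of 91 values over the set under alternative settings 6 passed the limits given below. Genes 2-fold higher numbered 1 in place of 2 with probe sets averaged per gene, with a floor at the 75th percentile and with the floor required on both arrays, each of which drops Cxcl11, and 1 with quantile normalization repeated, which puts Cxcl10 at 0.99. At 1.5-fold, 2 genes were lower in place of 0. The interleukin median was -0.55 in place of -0.27 with the floor at the 75th percentile, which leaves Il6 alone. The other 85 were within the limits used: 1.5 times for counts, the 95% Wilson interval for the share of genes higher, and 0.28, the median range between probe sets of a gene, for medians. That last limit is wider than most group medians, so shifts within it can be large. The NF-kB median ran from 0.052 to 0.18, the adhesion median from 0.19 with each probe set counted once to 0.58 with the 75th percentile floor. Without a floor the median of the other cytokines was 0.086 in place of -0.18 and that of the CC ligands -0.036 in place of 0.036. The CXC and CX3C median, 0.00046, was negative under several settings, down to -0.066. The share higher ran from 42.9% with a lowess trend (span 0.3) subtracted to 57.1% with the 75th percentile floor, so the even split has no settled side. Of 215 values of single genes under the alternatives 5 moved by more than 0.28, those of Vcam1, Nfkbiz and Nfkbia between probe sets, and 12 changed sign, in 6 genes: Csf1, Cx3cl1, Cxcl16, Nfkbia, Nfkbiz and Vcam1. Many of the 215 could not move. A change of floor leaves the difference of a gene as it was, and probe set rules cannot alter one that rests on a single probe set. The count of 5 is therefore no measure of how stable the values are. Neither Cxcl10 nor Cxcl11 changed sign, but of the settings that kept them only the subtracted trend and the repeated normalization altered their differences at all. Signal near background limits Cxcl9, Cxcl11, Ccl9, Ccl24 and Lif.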

Other observations

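Other genes of the same families, taken by symbol after the data were seen, included a few larger differences. Of 9 further chemokine ligands with a probe set 3 were kept, 1 of them 2-fold higher, beside 2.51% of all kept genes. Ccl28, a chemokine of mucosal epithelia, read 9.94 on the transgenic and 8.81 on the control array, 2.18-fold higher, and Ccl25, the thymic and intestinal ligand of Ccr9, read 6.80 and 5.84, a difference of 0.96. Ccl27a read 6.19 and 6.23. Of 17 further genes of the TNF receptor superfamily 9 were kept. Of these 5 were higher, beside 54.2% of all kept genes, and 2 were 2-fold higher, beside 2.51%. With counts this small the shares are not read as different from the background. Tnfrsf9, the costimulatory receptor 4-1BB, read 9.23 and 7.92, 2.47-fold higher, and Tnfrsf11b, or osteoprotegerin, read 7.28 and 5.50, the latter below the floor. Tnfrsf11b was kept only through the transgenic value, so its direction was set by the filter. Tnfrsf13c and Tnfrsf13b, receptors for the B cell factor BAFF, differed by 0.66 and 0.60.

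Of receptors for interleukins outside the lists, 9 of 11 kept genes were higher, beside 54.2% of all kept genes. Their median was 0.21 and none passed 2-fold. Il17rd and Il3ra were kept only through the transgenic value and Il22ra2 only through the control value, so their directions were set by the filter. With so few genes the share is not read as different from the background. Il17re, the receptor chain for interleukin-17C, was the furthest at 8.80 and 7.88. Il4ra, which serves interleukin-4 and interleukin-13, read 7.20 and 6.72. Of 20 further interleukin ligands 4 were kept, with differences from -0.62 for Il20, whose transgenic value was below the floor, to 0.28 for Il16. None of these differences has a replicate check.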
